A study of Mus musculus with 44 samples.

Results

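The genes described here encode the nuclear-encoded subunits of the mitochondrial respiratory chain and of ATP synthase, followed through cultures of mouse calvarial osteoblasts, the bone-forming cells of the skull vault. A probe set, the group of array spots that reads 1 transcript, was a member if its gene symbol began with Nduf, Uqcr, Cox4 to Cox8 or Atp5, or was Cycs, Cyc1 or 1 of Sdha, Sdhb, Sdhc and Sdhd. This rule found 148 probe sets of 82 genes among 36701 probe sets and 15964 genes on Affymetrix Mouse 74 arrays of the types A, B and C. Another 16 probe sets named a member together with a further gene and were left out. By complex there were 57 probe sets for complex I, 11 for its assembly factors, 7 for complex II, 12 for complex III, 1 for cytochrome c, 34 for complex IV and 26 for complex V. The rule reads gene symbols and no measured value.

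The cells came from the calvaria of newborn mice, given in the labels as 7 day, and were grown in DMEM with fetal calf serum. Samples are named by experiment. Day 7 samples (Exp99, Exp101 and Exp103) carried the transgene pOBCol3.6GFP, and their medium had no additions. Day 17 samples (Exp100, Exp105 and Exp106) carried pOBCol2.3GFP, and ascorbic acid and beta-glycerophosphate were given from day 7 on. Both transgenes drive green fluorescent protein from fragments of a type I collagen promoter. Each experiment has an unsorted sample and samples sorted into GFP-positive and GFP-negative cells, which gave 6 groups of 3 RNA samples each. Day, transgene and additions changed together and cannot be told apart. The labels do not say whether experiments used separate litters, so p-values measure only the spread between these samples.

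Electrons from NADH enter the chain at complex I and those from succinate at complex II. Complex III passes them to cytochrome c, complex IV hands them to oxygen, and the proton gradient built on the way drives ATP synthase, complex V. Some complex IV subunits exist in a ubiquitous form and a form typical of heart and skeletal muscle. Cox6a2 and Cox7a1 are such muscle forms, Cox8b is found in muscle and brown fat, and Cox6a1, Cox7a2 and Cox8a are their widely expressed counterparts. The collagen-making osteoblast is known both for glycolysis and for oxidative phosphorylation.

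Many promoters of this gene set are known to bind nuclear respiratory factor 1 (NRF1) and ETS family factors. The 250 bases before the transcription start are shown for 4 members called in the day 17 unsorted samples below: the 3 of them with an NRF1 core, and Cycs, which had no exact match. The search took exact letters only. The Cycs sequence holds tcgcatgcgc, which differs from the NRF1 core in its first letter alone. Capitals mark the NRF1 core, a palindrome, and the ETS core CCGGAAG on either strand. The sequences are those of RefSeq on build GRCm38.p6, written 5′ to 3′ on the strand of the gene.
Cox6a1, chr5:115348959-115349208, minus strand: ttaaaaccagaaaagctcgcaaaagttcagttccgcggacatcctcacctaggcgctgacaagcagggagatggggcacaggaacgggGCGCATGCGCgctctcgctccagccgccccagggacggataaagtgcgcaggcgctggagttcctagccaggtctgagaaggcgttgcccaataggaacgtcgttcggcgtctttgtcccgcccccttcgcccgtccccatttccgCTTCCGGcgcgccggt
Atp5g2, chr15:102671048-102671297, minus strand: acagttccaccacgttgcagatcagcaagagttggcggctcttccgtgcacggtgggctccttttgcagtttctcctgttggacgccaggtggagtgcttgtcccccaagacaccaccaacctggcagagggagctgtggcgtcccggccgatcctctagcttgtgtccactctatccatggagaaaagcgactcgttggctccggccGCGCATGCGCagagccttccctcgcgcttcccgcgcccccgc
Atp5k, chr5:108434400-108434649, minus strand: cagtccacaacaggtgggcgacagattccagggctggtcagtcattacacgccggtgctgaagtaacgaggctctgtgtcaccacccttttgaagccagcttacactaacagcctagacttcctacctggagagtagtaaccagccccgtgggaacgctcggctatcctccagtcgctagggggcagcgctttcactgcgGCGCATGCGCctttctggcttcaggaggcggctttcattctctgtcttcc
Cycs, chr6:50566570-50566819, minus strand: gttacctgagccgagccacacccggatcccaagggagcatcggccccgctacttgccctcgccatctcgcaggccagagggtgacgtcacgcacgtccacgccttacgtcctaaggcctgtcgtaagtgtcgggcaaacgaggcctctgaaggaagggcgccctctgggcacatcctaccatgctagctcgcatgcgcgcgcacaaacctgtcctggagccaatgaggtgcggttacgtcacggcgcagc
The RefSeq table held a window for 67 of the 82 member genes. In windows of 300 bases, from 250 before to 50 after the start, the NRF1 core matched in 6 of the 67 members, 8.96%, against 0.977% of 27025 genes with a window. These members were Ndufaf4, Ndufaf5, Uqcrc1, Cox6a1, Atp5g2 and Atp5k. The ETS core matched in 25.4% of members and 9.12% of all genes. The E-box CANNTG, searched after values were seen, matched in 71.6% of members and 72.1% of all genes, and the MEF2 pattern in 2.99% and 3.7%. These are matches of letters, not bound sites.

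Most members gave bright signals. Of the 148 probe sets, 113 exceeded their array's median on at least 3 sorted arrays and were tested, which covered 79 genes. Their median brightness lay at percentile 94.8 of all probe sets on the same array type, and 59 of the 79 genes lay above the 75th percentile. On array A, the type with unsorted samples of every experiment, 77 member probe sets of 66 genes were tested. No probe set of Cox7a1, Cox8a or Ndufc2 passed, and Cox4i2, Ndufa4l2 and Atp5b were not analysed here. The Cox7a1 probe set, for the muscle form of subunit VIIa, ranged from 11.3 in day 7 GFP-negative cells to 189 in day 17 unsorted cells. Values are normalised intensities, arbitrary units after array distributions were made equal within a type, and the median over all probe sets on array A was 566. The Cox8a probe set stayed between 27.6 and 221, below that median in all 18 samples.

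Exp106 stood apart from the rest and is given with and without where a result turns on it. On array A its samples correlated with the other samples at a mean r of 0.839, against 0.943 among the others. Trimmed mean intensities ranged from 1069 to 1766 on array A, 1367 to 1723 on B and 1259 to 1606 on C. Col1a1, the type I collagen gene that marks osteoblasts, ranged from 42648 to 149230 over all samples. Fewer cells of a type and less RNA per cell cannot be told apart in such bulk samples.

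**Figure D1:**
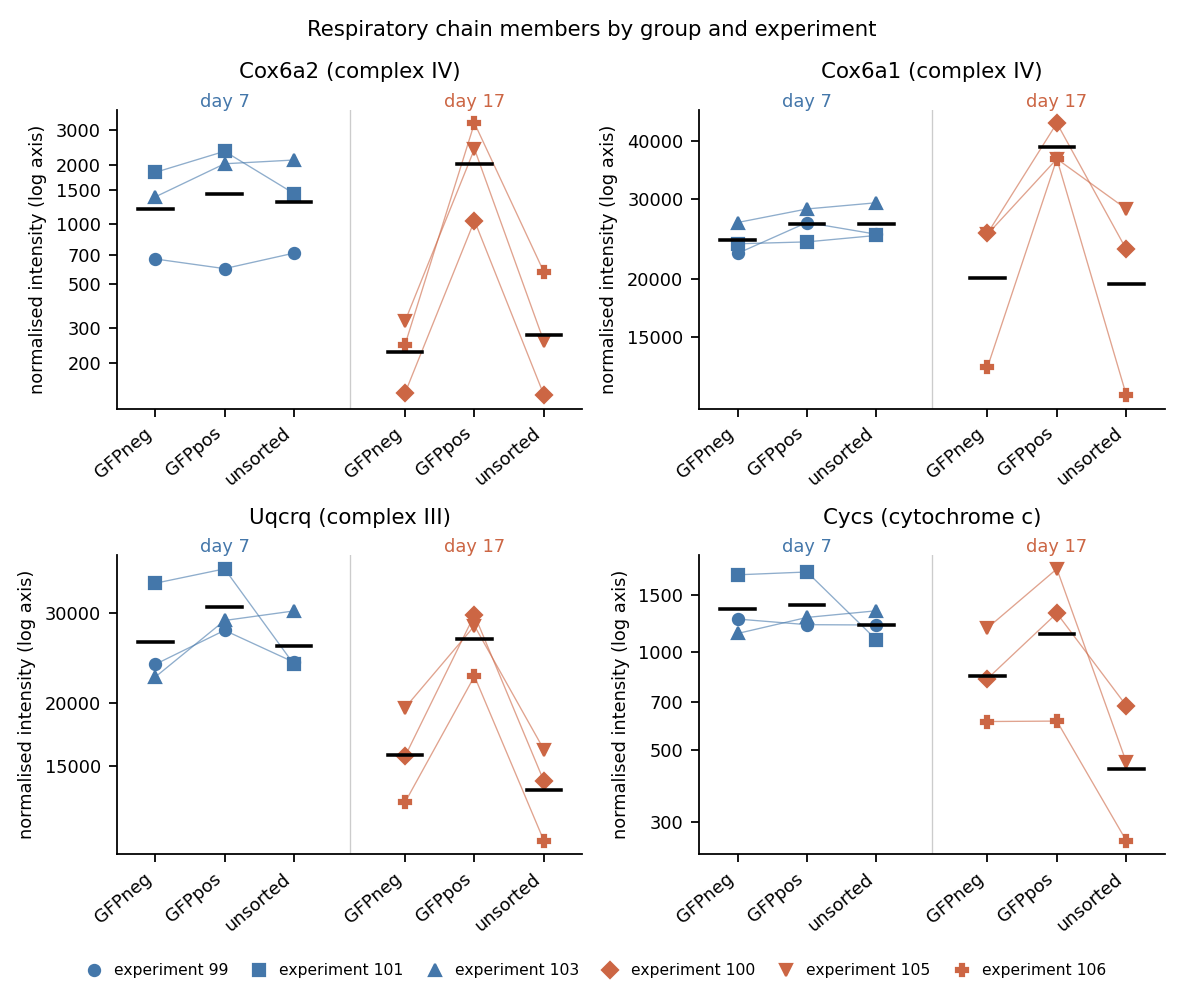
Normalised intensity (log axis) of Cox6a2, Cox6a1, Uqcrq and Cycs in the 18 samples on array A. Each symbol is 1 sample, thin lines join the samples of an experiment, and black bars are group means taken on the log2 scale. Cox6a2 was between 1046 and 3250 in the day 17 GFP-positive samples and between 138 and 576 in the other day 17 samples.

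Cox6a2, the muscle form of subunit VIa of cytochrome c oxidase, was the member with the largest difference between sorted fractions. At day 17 its normalised intensity was 1046, 2406 and 3250 in GFP-positive cells (Exp100, Exp105 and Exp106). In the GFP-negative cells of the same experiments it was 141, 325 and 247, and in the unsorted cells 138, 257 and 576. The GFP-positive samples therefore lay above both other day 17 groups without overlap, while GFP-negative and unsorted samples overlapped. The difference between GFP-positive and GFP-negative cells was 2.99 ± 0.58 on the log2 scale (SE, n = 3), a 7.93-fold difference on the scale log2(intensity + 32), with an adjusted p of 0.0250 (limma with Benjamini-Hochberg adjustment over 22099 probe sets). Within the experiments it was 2.64, 2.77 and 3.55. On the intensities as deposited, without normalisation, it was 2.61 and the adjusted p 0.0577, and in a fit of only the 2 groups the adjusted p was 0.103. It was 0.123 without the GFP-negative sample of Exp100, 0.0524 without that of Exp105 and 0.100 without the GFP-positive sample of Exp105.

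At day 7 the same probe set did not separate the fractions. Cox6a2 stood at 599, 2341 and 2026 in GFP-positive cells (Exp99, Exp101 and Exp103) and at 670, 1832 and 1377 in GFP-negative cells. The unsorted day 7 samples had 717, 1433 and 2116. All 3 groups overlapped, and Exp99 was lowest in each. The day 7 difference was 0.25 ± 0.58 with an adjusted p of 1. The difference between the days' GFP effects was 2.74 ± 0.81 with an adjusted p of 0.390 in the fit without pairing. With the experiment as a block, which compares samples of the same experiment, its SE was 0.33 and its adjusted p 0.00929 (limma). Between days, Cox6a2 differed by 0.50 ± 0.58 in GFP-positive cells (adjusted p 0.679), by -2.25 ± 0.58 in GFP-negative cells (adjusted p 0.141) and by -2.10 ± 0.61 in unsorted cells (adjusted p 0.0543).

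Cox6a2 stood far from the other members at day 17. It ranked highest of the 113 member probe sets, and the other tested genes, each by 1 probe set, ranged from -1.14 to 1.73 with a median of 0.20. The upper end was Ndufaf2, a complex I assembly factor, whose probe set had 72.5 and 58.0 in the sorted fractions of Exp106 and whose adjusted p was 0.604. At day 7 Cox6a2 ranked 23 of 113. In 18 samples on array A the genes whose log2 levels followed Cox6a2 most closely were Avil (r = 0.859), Fdft1 (0.856), Pla2g12a (0.833), Slc7a3 (0.830) and Ktn1 (0.821), out of 6715 probe sets compared. Among members the highest was Uqcrq with r = 0.753. The list turned on Exp106. In the 15 samples without it the first 5 were Cyb5b (r = 0.944), Nme6 (0.939), Dld (0.920), Cyp51 (0.909) and Shoc2 (0.901), none of them among the first 5 over all samples, and Uqcrq had 0.899. These correlations describe samples that share experiments and carry no test.

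Skeletal muscle markers were measured beside Cox6a2. Of 26 muscle genes listed, 25 were on array A, 15 of these exceeded the array median in at least 3 samples, and 9 never did. The myosin heavy chains Myh2 and Myh3 had 22.1 to 47.3 and 14.3 to 74.5 in day 17 GFP-positive cells, and myoglobin, Mb, 70.1 to 90.0. Other markers were brighter in the same cells. The cardiac actin Actc1 had 2772 to 4507 there and 4459 to 5968 in GFP-negative cells, and the myogenic factor Myod1 had 589 to 4459 and 780 to 3695. The myosin Myh4 had 587 to 2105 in GFP-positive and 205 to 2717 in GFP-negative cells. For Myod1 and Myh4 the highest value of both fractions was that of Exp106. The part of muscle marker RNA in the Cox6a2 difference was not tested. Summed over the list, the level was 12326 to 21029 in day 17 GFP-positive cells and 12754 to 23396 in GFP-negative cells, so the groups overlapped. The overlap came from Exp106. Within each experiment the GFP-positive sample had the lower sum. The values were 12419 against 13826, 12326 against 12754 and 21029 against 23396 (Exp100, Exp105 and Exp106). Much of each sum was Actc1, with 3838 against 5968, 4507 against 5894 and 2772 against 4459. In Exp100 and Exp105 this gap was wider than that of the sum, so the lower sums there rested on Actc1. The other markers together were higher in GFP-positive cells in those experiments. The Actc1 probe set carries the suffix f, explained below. At day 7 the summed level was 13151 to 16008 in GFP-positive and 21057 to 28200 in GFP-negative cells. The list's median GFP difference at day 17 was 0.08 with 9 of 16 tested genes above 0. On the intensities as deposited that median was -0.18.

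The other isoforms of the same subunits gave smaller differences. Cox6a1, the ubiquitous form of subunit VIa, had 43832, 36619 and 36619 in day 17 GFP-positive cells and 25181, 25083 and 12862 in GFP-negative cells on array A. The GFP-positive samples were the highest 3 of the 18, without overlap. The difference was 0.95 ± 0.23 with an adjusted p of 0.0804, and with the experiment as a block 0.95 ± 0.17 with an adjusted p of 0.0160 (limma). A second Cox6a1 probe set, on array B, gave 0.53 ± 0.29 with an adjusted p of 0.585 and was lower in GFP-positive cells in Exp106. The array A probe set carries the suffix f, which Affymetrix gave to sets matching several related sequences. The suffix f was on 22 of the 113 tested member probe sets, which may therefore read related transcripts. Letter suffixes of any kind were on 41.

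Cox8b, the form of subunit VIII of muscle and brown fat, had 1182, 1456 and 1362 in day 17 GFP-positive cells and 780, 897 and 518 in GFP-negative cells. These groups did not overlap, yet the difference of 0.87 ± 0.26 had an adjusted p of 0.166. Day 7 GFP-positive cells had 583, 835 and 596. The difference between days in GFP-positive cells was 0.97 ± 0.26 with an adjusted p of 0.0538, just outside the threshold of 0.05. The Cox8b probe set read here carries the letter suffix r. A second Cox8b probe set on array A did not pass the brightness filter and was not tested. Cox7a2, the ubiquitous form of subunit VIIa, differed between fractions by 0.29 ± 0.32 at day 17 (adjusted p 0.869). Cox4i1, the ubiquitous subunit IV, differed by 0.30 ± 0.23 on 1 array A probe set and by -0.17 ± 0.45 on the other, so its direction was unsettled. Cox6b2, a form of subunit VIb typical of testis, had the lowest complex IV value, -1.08 ± 0.37 (adjusted p 0.248), with 337, 396 and 555 in GFP-positive and 1060, 847 and 879 in GFP-negative cells. Its probe set on array C gave -0.11 ± 0.46.

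Across the whole chain, GFP-positive and GFP-negative cells differed little at either day. At day 7, 0 of 113 member probe sets and 0 of 22099 probe sets in all, 0%, passed an adjusted p of 0.05 (limma). At an unadjusted p under 0.05 there were 0 members and 328 of all. The members with the smallest p were Ndufa2, an accessory subunit of complex I, at 0.32 ± 0.19, and Atp5pb, of the stalk of ATP synthase, at 0.35 ± 0.24. In the other direction they were the complex I subunits Ndufs4, at -0.61 ± 0.49, and Ndufs3, at -0.86 ± 0.84. Over the member genes the median difference was 0.11, with 58 of 79 above 0, and that over all genes 0.00, but on the intensities as deposited the members' median was -0.03 and that of all genes -0.08. Such gene counts rest on 1 probe set a gene. Of 27 genes with several tested probe sets, 17 had opposite signs between fractions at day 7 and 13 at day 17, none with a call.

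At day 17, 1 of 113 members was called higher in GFP-positive cells, which is Cox6a2, where 0.348% of all probe sets were called higher. In either direction 1.48% of all probe sets were called, and 0 members were called lower, where 1.13% of all were. The members' median was 0.20 with 62 of 79 genes above 0, against -0.01 over all genes, and as deposited it was 0.13 against -0.10. In the fit without pairing it turned when single samples were left out, which also leaves the other fraction of that experiment unpaired. It was -0.0062 without the GFP-positive sample of Exp100 and -9.5e-05 without the GFP-negative sample of Exp106. Without all of Exp106 it was 0.24. Within Exp100, Exp105 and Exp106 the median was 0.38, 0.10 and 0.14, with 66, 52 and 45 of 79 genes above 0. Over all genes it was 0.0018, -0.0099 and -0.012. Without Cox6a2 the median over the 78 remaining genes stayed 0.20. Complex medians lay close together, at 0.20 for complex I, 0.21 for II, 0.19 for III, 0.25 for IV and 0.19 for V, while the complex I assembly factors had 0.07. Higher values in GFP-positive cells in all 3 day 17 experiments were found for 32 of 113 member probe sets, where 17.6% of all probe sets showed this. At day 7 these were 30 of 113, where 12.7% of all did.

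With the experiment as a block, 3 members were called higher in day 17 GFP-positive cells, where 1.76% of all probe sets were, and 0 lower, where 3.26% were, 5.02% in either direction. These were Cox6a2, Cox6a1 and Uqcrq, a small subunit of complex III. Uqcrq had 29741, 28305 and 22538 in GFP-positive and 15695, 19545 and 12751 in GFP-negative cells, and its groups did not overlap. Its difference was 0.76 ± 0.22 without the block (adjusted p 0.149) and 0.76 ± 0.11 with it (adjusted p 0.00684). No member was called at day 7 with the block, where 0% of all probe sets were. At an unadjusted p under 0.05 there were 6 of 113 members, all higher, where 2.76% of all were and 1.24% were higher (limma). Without Exp106 the block called 8 of 111 members at day 17, all higher, where 3.48% of all probe sets were called higher. For the change of the GFP effect between days, Cox6a2 alone was called with the block, where 1.14% of all probe sets were (0.299% higher and 0.837% lower), and 0 of 113 without it, where 0.253% were (0.0317% higher and 0.222% lower) and 3 members had an unadjusted p under 0.05, as did 6.13% of all (limma). Macrophage marker RNA moved with the fractions: its summed level over 15 genes was 20885 to 79594 in day 17 GFP-positive and 68391 to 105350 in GFP-negative cells, with Exp106 higher in the GFP-positive cells. Its part in these differences was not tested.

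**Figure D2:**
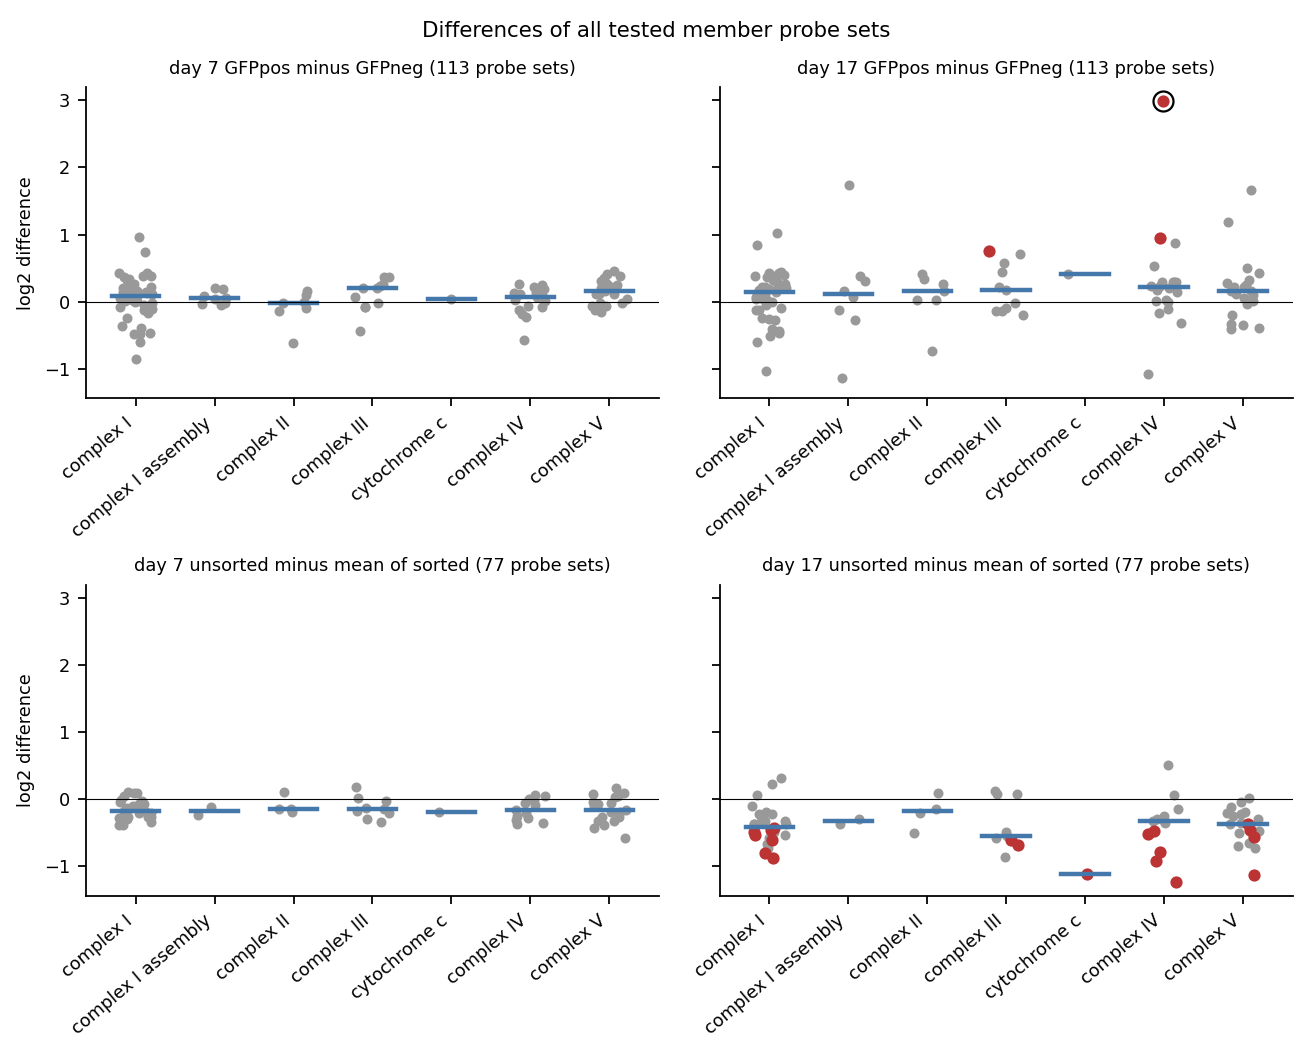
Log2 differences of every tested member probe set, by complex, for GFP-positive minus GFP-negative cells (113 probe sets) and unsorted minus the mean of sorted cells (77 probe sets). Blue bars are medians over probe sets, red points passed an adjusted p of 0.05 with the experiment as a block, and the black ring marks the member that passed without it, Cox6a2. The day 17 unsorted samples show 19 red points, all below 0.

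The catalytic and core subunits gave no call between fractions. In complex I, Ndufs1, which carries iron-sulfur clusters, had a day 17 difference of 0.22 ± 0.38 on array A, and Ndufv1, the NADH-binding subunit, -0.41 ± 0.19 (adjusted p 0.933 and 0.496). In complex II the flavoprotein Sdha had 0.27 ± 0.28 and the iron-sulfur subunit Sdhb 0.16 ± 0.46 on array A. In complex III the core proteins Uqcrc1 and Uqcrc2 had -0.14 ± 0.17 and 0.43 ± 0.19 on array A, and cytochrome c1, Cyc1, -0.21 ± 0.24 on 1 probe set and -0.09 ± 0.42 on the other. Cytochrome c itself, Cycs, had 0.42 ± 0.38. The complex IV subunits Cox5a and Cox5b had 0.15 ± 0.31 and 0.20 ± 0.39. In complex V the stalk subunit Atp5o had 0.42 ± 0.52 and Atp5g1, a gene for the membrane ring subunit c, -0.19 ± 0.42. Each SE is close to or above its difference in all but Ndufv1 and Uqcrc2, so changes of this size were not detectable here. In simulated data with independent noise the fit without a block recovered 7.46% of log2 changes of 1, 47.8% of 2 and 65.2% of 3 between day 17 fractions.

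Between days, the sorted fractions gave no called member. In GFP-positive cells 0 of 113 members passed, where 5.45% of all probe sets did (1.91% higher and 3.54% lower), and 10 members had an unadjusted p under 0.05, where 19.3% of all did (limma). Without Exp106, 7 of 111 members passed, 6 of them higher, where 13.1% of all passed and 5.37% were higher. In GFP-negative cells 0 of 113 passed, where 0.538% of all did (0.272% higher and 0.267% lower), with 9 at that unadjusted level, where 11.4% of all were. Atp5j2, a subunit of the membrane part of ATP synthase, had the smallest p among lower members in GFP-positive cells, at -1.02 ± 0.36 (adjusted p 0.118). Cox7a2l, which joins complexes III and IV, followed at -0.64 ± 0.27. Upwards it was Cox8b and then Atp5g2, a second gene for subunit c, at 0.51 ± 0.20. In GFP-negative cells Cox6a2 and Uqcrq (-0.74 ± 0.22) were lowest in p, and in the other direction Cyc1 (1.07 ± 0.42) and Cox6b2 (0.92 ± 0.37). That Cyc1 probe set had 38651 to 68978 in Exp106, while the other Cyc1 probe set was -0.44 ± 0.24, so the 2 disagreed in sign. Of 27 genes with several tested probe sets, 14 had opposite signs in GFP-positive cells and 17 in GFP-negative cells, none with a call.

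Median levels between days depended on Exp106. In GFP-positive cells the members' median difference was -0.16, against -0.07 over all genes, and 0.13 without that experiment. In GFP-negative cells it was -0.22, against -0.05 over all genes, and 0.0057 without that experiment. The medians per sample ranged from -0.52 to 0.14 in day 17 GFP-negative and from -0.23 to 0.46 in day 17 GFP-positive cells, each taken over the 66 genes as deviations from their mean over the 18 samples. Exp106 was lowest in all 3 day 17 groups.

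**Figure D3:**
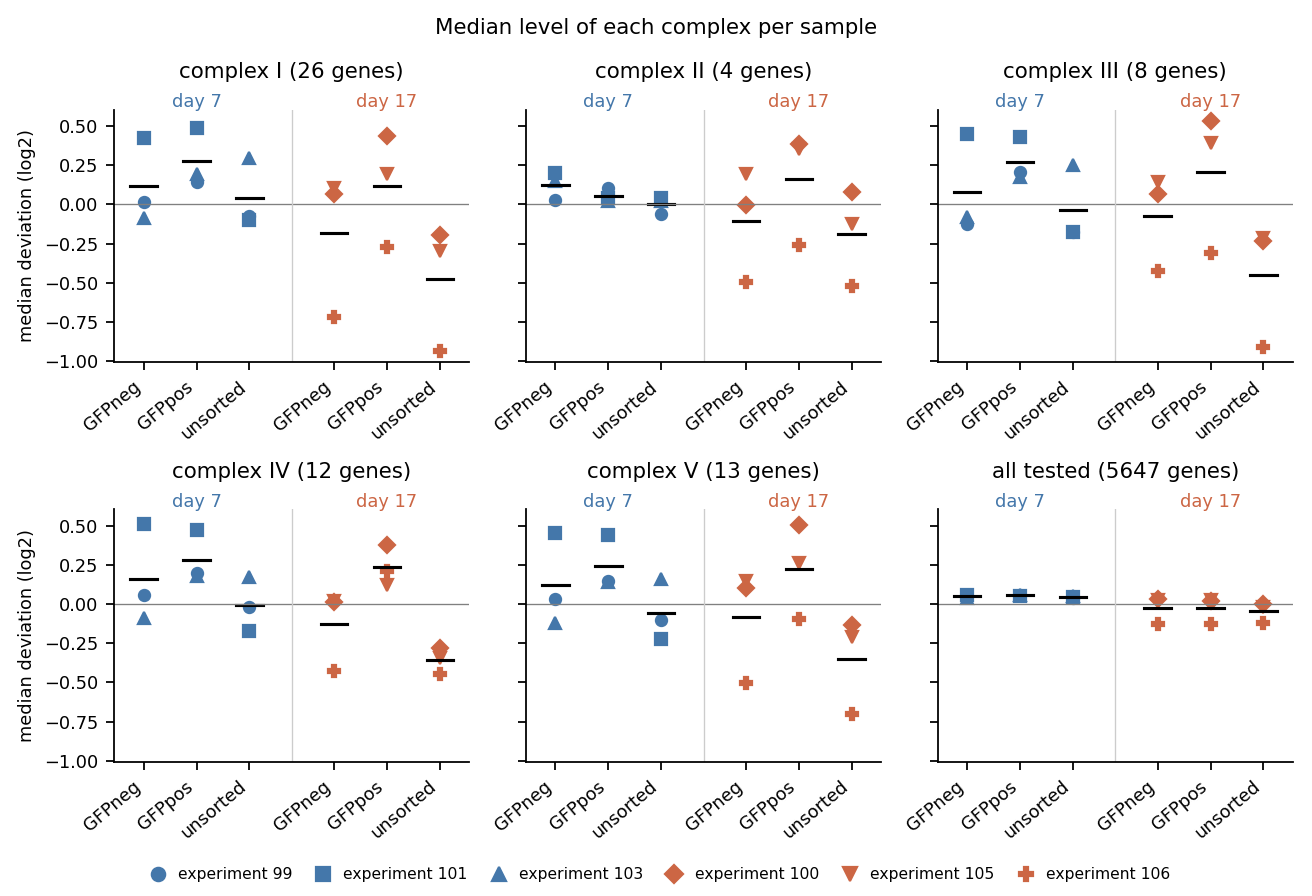
Median deviation of the genes of each complex from their own mean over the 18 samples (log2), per sample, with the number of genes in each title, and black bars for group means. All 5 complexes have a mean below 0 in the day 17 unsorted and GFP-negative groups, lower in the unsorted group. The medians over all 5647 genes tested on array A lie between -0.13 and 0.06. Over all members Exp106 has the lowest value of each day 17 group.

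Unsorted cells had less respiratory chain RNA at day 17 than at day 7 for 2 members. Uqcrq fell from 24007, 23779 and 30279 to 14034, 16182 and 10719, a log2 difference of -0.94 ± 0.22 with an adjusted p of 0.0203 (limma over 7455 probe sets). Cycs, the soluble carrier between complexes III and IV, fell from 1208, 1088 and 1337 to 683, 457 and 262, by -1.40 ± 0.38 with an adjusted p of 0.0412. The days did not overlap for either gene. They were 2 of 77 members called lower, where 2.67% of all probe sets were called lower, so the members' share was near the background. In either direction 5.71% of all were called, and 3.04% were called higher against 0 members. Both calls rested on single unsorted samples. Uqcrq had an adjusted p of 0.0518, 0.104 and 0.0938 without those of Exp99, Exp103 and Exp106. Cycs had 0.114, 0.0974, 0.151, 0.0705 and 0.176 without those of Exp99, Exp101, Exp103, Exp105 and Exp106. In a fit of the 2 groups alone they had 0.0680 and 0.0918. The members' median was -0.47 with 49 of 66 genes below 0, against -0.10 over all genes, and -0.20 without Exp106. As deposited it was -0.37 against 0.04.

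Within day 17, unsorted cells had lower values than the mean of the sorted fractions of the same experiment for most members. Without pairing 0 of 77 members were called, where 1.6% of all probe sets were called, 1.49% higher and 0.107% lower, and 20 members had an unadjusted p under 0.05, all of them lower, where 6.17% of all were lower at that level. With the experiment as a block 19 of 77 were called lower, where 6.08% of all probe sets were called lower, and 0 were called higher, where 6.26% were. In either direction the block called 12.3% of all. Without Exp106 the block called 13 of 76 members lower, where 5.87% of all were. The fit without pairing then called 7 lower, where 4.04% of all were, and also 7 without only the GFP-positive sample of Exp106, where 2.04% of all were. Values lower in all 3 experiments were found for 52 of 77 member probe sets, where 25.5% of all probe sets showed this, and higher in all 3 for 1, where 22.2% did. The members' median was -0.40 with 58 of 66 genes below 0, against -0.02 over all genes. As deposited the median over all genes shifted to 0.23 and that of members was -0.24 with 52 of 66 below 0.

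Cycs was among the members with the largest difference. In day 17 unsorted cells it had 683, 457 and 262, in GFP-positive cells 1314, 1799 and 612, and in GFP-negative cells 826, 1183 and 610 (Exp100, Exp105 and Exp106). The unsorted value was the lowest of each experiment. The difference was -1.11 ± 0.33 without the block (adjusted p 0.107) and -1.11 ± 0.21 with it (adjusted p 0.00704). Cox6a2 gave -1.23 ± 0.24 with the block (adjusted p 0.00776), but its unsorted samples lay near the GFP-negative ones, as shown above.

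The remaining calls came from every complex except complex II. In complex I, Ndufb3 had 2826, 2682 and 1448 in unsorted cells, 6305, 5937 and 2520 in GFP-positive and 3771, 4667 and 2922 in GFP-negative cells, a difference of -0.88 ± 0.19 with the block. Ndufb11 (-0.80 ± 0.20), Ndufb2, Ndufb5, Ndufa3, Ndufa8 and Ndufab1 were the other complex I calls, all accessory subunits. In complex III they were the core protein Uqcrc2 (-0.68 ± 0.16) and Uqcrq (-0.61 ± 0.13). In complex IV, Cox7b had 5426, 5537 and 4758 in unsorted cells against 7037 to 12209 in the sorted fractions, without overlap, a difference of -0.92 ± 0.22. Cox7a2 (-0.78 ± 0.21), Cox6c and Cox6a1 were called as well. In complex V, Atp5k, a small membrane subunit, had 961 and 365 in the unsorted cells of Exp100 and Exp105 against 1798 and 1234 in their GFP-positive cells. Both samples of Exp106 were lower, again with the unsorted one below, and the difference was -1.13 ± 0.29. Atp5g2 (-0.57 ± 0.13), Atp5o and Atp5c1, the central shaft of the rotor, completed the list. Among the 19 genes called, Ndufb2, Ndufa3 and Atp5c1 each had another tested array A probe set that was not called. The array A probe sets tested for Uqcrc2, Cox6c, Cox6a1, Atp5g2, Ndufb5 and Ndufa3 carry the suffix f, so they may read related transcripts. Of the 19 genes 15 had a RefSeq window, and 3 of the windows held the NRF1 core, those of Cox6a1, Atp5g2 and Atp5k shown above. The ETS core was in 2, those of Atp5k and Cox6a1. That of Atp5k does not lie wholly within the 250 bases shown, so it is not marked there.

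**Figure D4:**
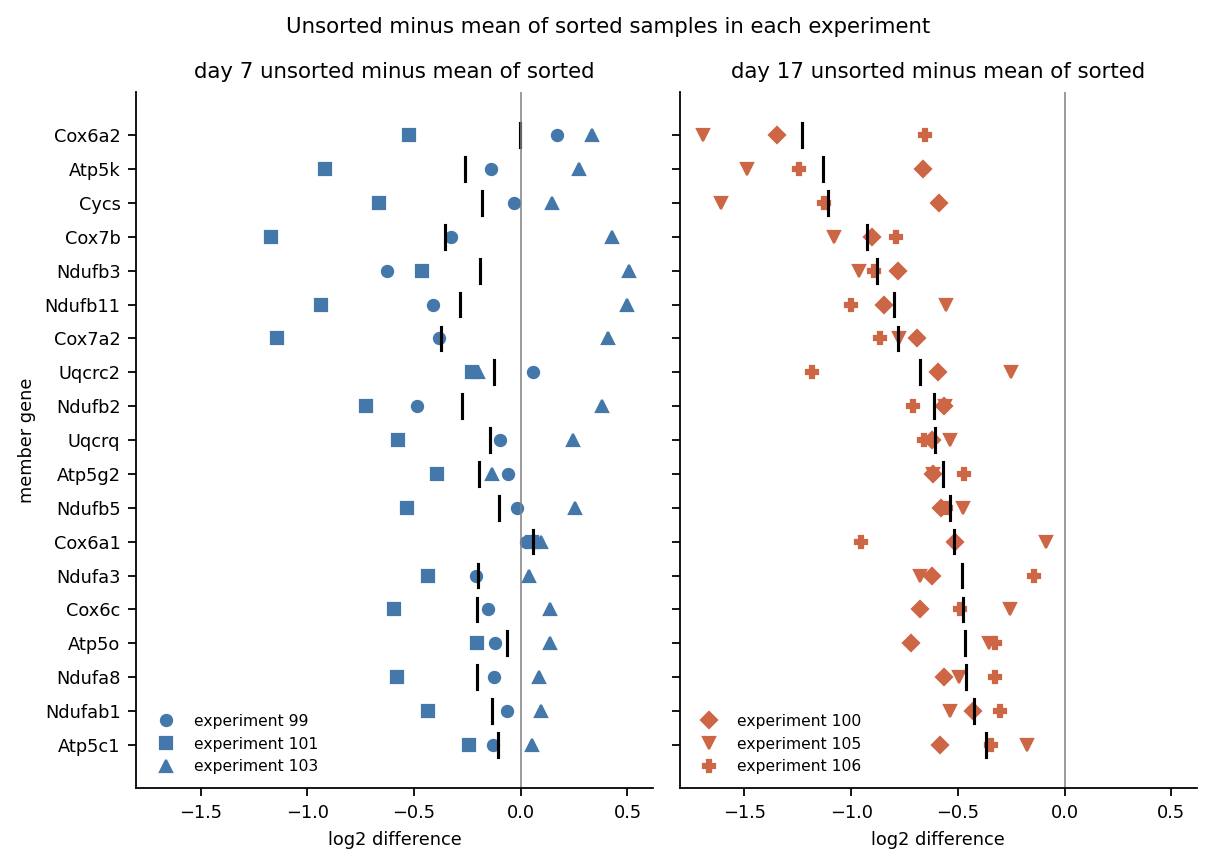
Log2 difference between the unsorted sample and the mean of the 2 sorted samples in each experiment, for the 19 members called at day 17 with the experiment as a block, ordered by their day 17 mean (black bars). All day 17 points lie below 0. The day 7 points of Exp103 lie above 0 for most genes and those of Exp101 below.

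By complex the day 17 medians were -0.40 for complex I (23 of 26 genes below 0), -0.17 for complex II, -0.56 for complex III, -0.34 for complex IV (10 of 12) and -0.47 for complex V (13 of 13). As deposited they kept their sign, at -0.22, -0.01, -0.42, -0.17 and -0.30, with 11 of 13 complex V genes below 0. These comparisons use the same sorted samples as the GFP comparison and the same unsorted samples as the comparison of days. Within experiments the members' median against GFP-negative cells alone was -0.30, -0.34 and -0.20, and against GFP-positive cells alone -0.70, -0.48 and -0.31 (Exp100, Exp105 and Exp106). Unsorted cells were thus lower against each fraction in each experiment.

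At day 7 no member was called in this comparison with or without the block, where 0% of all probe sets were called (59 at an unadjusted p under 0.05 without the block and 242 with it, limma). In the fit without it 1 member had an unadjusted p under 0.05, Atp5pb at -0.43 ± 0.20. Upwards the smallest p was that of an Atp5d probe set, at 0.16 ± 0.21. The members' median was -0.16 with 56 of 66 genes below 0, against -0.01 over all genes, while as deposited the median of complex IV changed sign to 0.01 and that of all members was -0.04 with 38 of 66 below 0. Lower values in all 3 experiments were found for 10 of 77 member probe sets, where 10.2% of all probe sets showed this, and higher ones for 4, where 9.59% did. Against GFP-negative cells the median was -0.04, -0.46 and 0.20 in Exp99, Exp101 and Exp103, so the experiments disagreed in sign. The difference between the days was not tested for this comparison.

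Other mitochondrial gene lists gave context for the day 17 unsorted samples. Among mitochondrial ribosomal proteins the median was -0.43, with 49 of 56 tested genes below 0 and none called, and as deposited -0.16. Citrate cycle genes had -0.14 with 11 of 14 below 0, but 0.06 as deposited. Carriers, import proteins and chaperones had -0.16, and 0.05 as deposited. Regulators of mitochondrial biogenesis had -0.02, and 0.28 as deposited. Assembly factors of the chain outside the member list had -0.34 with 6 of 6 genes below 0, but -0.05 as deposited with 3 of 6 below 0. Between day 17 fractions the mitochondrial ribosome list had a median of 0.15, or -0.03 as deposited, and the citrate cycle list 0.14, or -0.05 as deposited.

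Macrophage markers, which include Lyz2, Ctss and Cd68, moved with the unsorted samples. Their summed level was 142050 to 184480 in day 17 unsorted cells, above both sorted fractions of every experiment. In day 7 unsorted cells it was 18615 to 37322, and in day 7 GFP-positive cells 6170 to 6926. The median of 14 tested markers was 1.84 higher in day 17 unsorted than sorted cells, with 4 called higher without the block, and 2.85 higher at day 17 than at day 7 in unsorted cells. At day 7 the unsorted cells were 1.11 higher than the sorted mean. The part of these cells in the respiratory chain differences was not tested, nor was that of the handling during sorting, which unsorted cells did not pass through.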

How the data were processed

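Affymetrix Mouse 74 arrays measured 18 RNA samples, all of them on array A, with arrays B and C used for the 12 sorted samples. The deposited values are whole-number intensities on a linear scale with a lowest value of 10, and how the authors computed them was not given in the sources used. Gene symbols came from the platform annotation. From these values log2(intensity + 32) was quantile normalised within each array type. Probe sets above their array's median on at least 3 arrays were tested with limma 3.58.1 (R 4.3.3, statmod 1.5.0), with a variance trend and Benjamini-Hochberg adjustment over all tested probe sets at a threshold of 0.05. One fit held the 12 sorted samples on A, B and C, and another the 18 samples on array A. For counts of genes, each gene was represented by 1 tested probe set, from array A where it had one and otherwise B, then C, the brightest where several remained. The number of arrays limits the precision, and intensities carry no counts from which depth could be read. Groups and experiments were taken from the sample titles.

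Members named in the text were every member called (the 4 largest rises and falls where over 8 were), the lowest 2 p-values upwards and downwards where none was, the isoform pairs of complex IV and the core subunits of each complex. The other members called only with the block were named after their values were seen. Members and gene lists were chosen with earlier results of these data known. Pairing was taken from the experiment names in the titles, and on array A the deviations of GFP-positive and GFP-negative cells from their group means correlated at 0.29, 0.50 and 0.42 at day 7 and 0.47, 0.59 and 0.67 at day 17. Correlations were lower on arrays B and C, down to 0.019 at day 7 on C. Unsorted samples correlated with the sorted ones of their experiment at 0.68, 0.66 and 0.82 at day 17, but at 0.46, -0.082 and -0.22 at day 7, so the numbers did not pair the day 7 unsorted samples in the data. Alternatives were other pseudocounts (8 and 128), no normalisation, other filters, no variance trend, fits of only the groups compared, experiment as a fixed or random block, and leaving out samples or Exp106. The fit without a block was checked on simulated data: for day 17 fractions 5 of 85 calls were false, and for day 17 unsorted cells 8 of 156. The simulated noise was independent between samples, with no effect shared within an experiment. The fit with the block was not simulated, so these rates do not cover its calls.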

Additional observations from a re-analysis of the deposited data

Results flagged for a closer look

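The GFP difference of Cox6a2 differed between days when the experiment was taken as a block: the day 17 difference exceeded the day 7 difference by 2.74 ± 0.33 on the log2 scale, with an adjusted p of 0.00929 (limma with Benjamini-Hochberg adjustment). The day 17 difference was positive in 3 of 3 experiments. Without the block the same change was 2.74 ± 0.81 with an adjusted p of 0.390.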

How the results depend on the processing

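Member medians changed sign in 5 of the 8 comparisons under some alternative, while the called genes followed here (Cox6a2, Uqcrq and Cycs) kept their direction where called. With the experiment as a fixed block (paired samples), members called numbered 3 instead of 1 for day 17 GFP-positive against GFP-negative cells, 1 instead of 0 for the change of the GFP effect and 19 instead of 0 for day 17 unsorted against sorted cells; a random block gave 5, 1 and 14, and 3 instead of 2 for unsorted cells between days. Shares over all probe sets are not given here for the random block, so its counts cannot be set against the background. The fixed block without Exp106 gave 8, 1 and 13, where 8.9%, 4.15% and 13.3% of all probe sets were called. Without Exp106 and without a block the count between day 17 fractions was 3 of 111, all higher, where 4.96% of all were called and 1.71% higher. For GFP-positive cells between days it was 7 of 111, where 13.1% of all were called. Unsorted cells between days then gave 8 of 76, all lower, where 13.2% of all were called and 7.1% lower. Day 17 unsorted cells gave 7 of 76, all lower, where 9.37% of all were called and 4.04% lower. The day 17 GFP count was 0 as deposited and in a fit of only the groups compared. Unsorted cells between days gave 1 without a filter, 1 with a filter at the 75th percentile and 0 with only the groups compared. GFP-positive cells between days gave 1 with the larger pseudocount and 1 without a variance trend. For the values as deposited, other filters and pseudocounts, no trend and fits of only the groups compared, shares over all probe sets are not given. Those counts cannot be set against the background either. Leaving out single samples gave 0 to 1 calls between day 17 fractions, where 0.656% to 3.6% of all probe sets were called. GFP-positive cells between days then had 0 to 2, where 2.41% to 6.88% of all were called. Unsorted cells between days had 0 to 2, where 1.94% to 5.42% were. Day 17 unsorted cells had 0 to 7, where 0.0944% to 6.48% were. Without Exp106 the median between days moved to 0.13 in GFP-positive and -0.20 in unsorted cells, and to 0.0057 in GFP-negative cells. The day 17 GFP median turned in 2 of 17 alternatives (to -0.0062 and -9.5e-05), the change of the GFP effect in 5 of 22 (lowest -0.11) and the day 7 GFP median as deposited (-0.03). The cause was not tested. With 3 samples a group, the fit without a block recovered log2 changes of 1 in 7.46% of simulated cases between day 17 fractions.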
